A study of Mus musculus with 5 samples.

Results

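The genes described here encode the killing machinery of cytotoxic lymphocytes: the granzymes (symbols starting with Gzm), the pore-forming perforin gene Prf1, the killer cell lectin-like receptors (symbols starting with Klr), the granule membrane gene Nkg7, the receptor gene Ncr1, and the transcription factor genes Eomes and Tbx21. They were taken by symbol from the annotation of the array, as every gene of these families with a probe set that carries 1 symbol. This gave 38 genes of the 19938 that could be named, 23 of them starting with Klr and 10 with Gzm. Expression was measured in CD45+ leukocytes sorted by flow cytometry from the pancreas of 5 female WT NOD mice aged 10 weeks, a strain with spontaneous autoimmune diabetes, with 1 array for each mouse. All mice form 1 group with no treatment or genotype contrast, and the cells were sorted for CD45 alone, so T, B, natural killer and myeloid cells were measured together. Just before sampling, MRI had given each pancreas a T2 value, a relaxation time of the tissue, which was 35.3, 35.24, 32.77, 30.02 and 28.98 ms for mice 1 to 5. The study asked which transcripts of the infiltrate vary with that signal.

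Cytotoxic lymphocytes kill by releasing granules onto a target cell. Perforin opens the membrane, and granzymes, which are serine proteases, enter and cleave proteins of the target. Natural killer cells and CD8 T cells share this machinery, while the families of killer lectins encoded side by side in the natural killer gene complex let natural killer cells read MHC class I and stress ligands. In NOD mice CD8 T cells belong to the islet infiltrate, and perforin is known to contribute to diabetes in this strain.

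Values are log2 intensities after robust multi-array averaging (RMA), where 1 unit is a doubling. A gene counted as expressed at a mean of at least 6 over the mice. The medians of the 5 arrays lay between 4.57 and 4.61. Probe sets differ in how well they bind, so the level of a gene is not set against that of another gene, and a low value does not show that a transcript was missing. Of the 38 genes, 5 (13.2%) passed this limit, against 33.1% of all named genes. They were Nkg7, Gzma, Prf1, Klrd1 and Eomes. Eomes was the member just inside the limit at 6.22 ± 0.18 (SD, n = 5), and Tbx21, which encodes the other T-box factor T-bet, was the next below it at 5.71 ± 0.06 (SD, n = 5). No member other than these 5 reached 6 on any array.

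**Figure D1:**
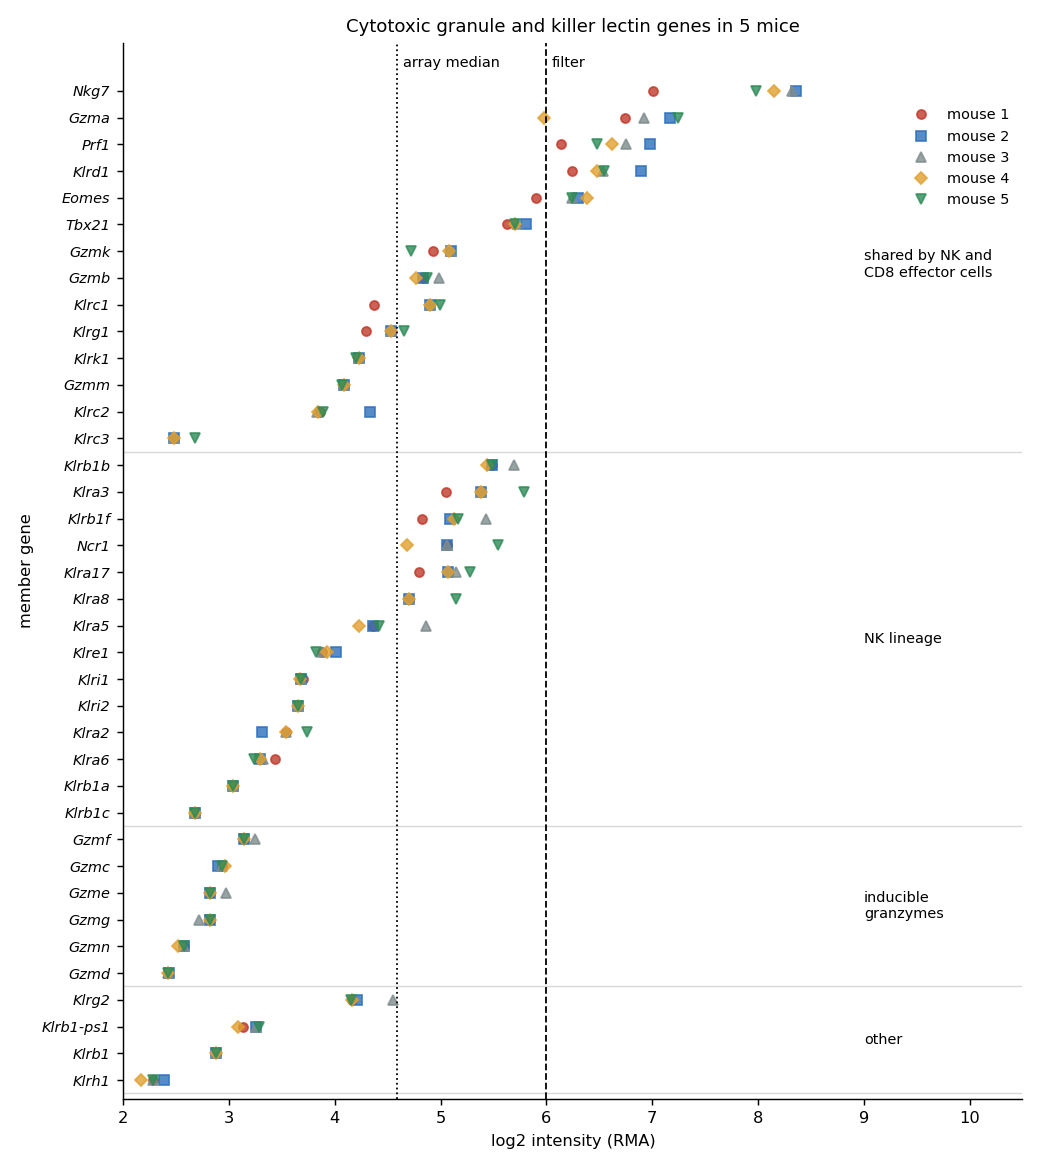
Log2 RMA intensity (x axis) of each of the 38 genes (rows, ordered by mean within role) in mice 1 to 5 (symbols); the dashed line is the limit of 6 and the dotted line the mean of the array medians. Nkg7, Gzma, Prf1, Klrd1 and Eomes are the genes with a mean right of the dashed line. The genes on the natural killer lineage list and the group labelled inducible granzymes, in which Gzmn is drawn, lie left of it.

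Nkg7 encodes a membrane protein of cytotoxic granules needed for their release. In mice 1 to 5 it read 7.01, 8.36, 8.32, 8.15 and 7.99, a mean of 7.97 ± 0.56 (SD, n = 5). Mouse 1 lay below the other 4 mice, whose values fell within a narrow band. Prf1, the perforin gene, read 6.14, 6.98, 6.76, 6.62 and 6.48 in mice 1 to 5, a mean of 6.60 ± 0.31 (SD, n = 5), and was again lowest in mouse 1 and highest in mouse 2.

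Of the granzymes, 1 of 10 passed the limit. Gzma, the tryptase-like granzyme A, read 6.74, 7.17, 6.93, 5.98 and 7.24 in mice 1 to 5, a mean of 6.81 ± 0.51 (SD, n = 5). It was low in mouse 4 and not in mouse 1, unlike Nkg7 and Prf1. Gzmb, the aspartate-cleaving granzyme B that triggers apoptosis, read between 4.77 and 4.99, above the array medians in every mouse but under the limit. Gzmk, which lies next to Gzma in the genome, read between 4.72 and 5.10. Gzmm had an equal value of 4.09 in 4 mice and 4.07 in mouse 5. The remaining granzymes, Gzmc, Gzmd, Gzme, Gzmf, Gzmg and Gzmn, form a cluster with Gzmb. All of them but Gzmn are induced by strong stimulation. The means of all these remaining granzymes lay between 2.42 and 3.16, under the array medians on all 5 arrays.

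Among the 23 lectin-like genes Klrd1 alone passed. It encodes CD94, the partner chain of the NKG2 receptors. Klrd1 read 6.24, 6.89, 6.53, 6.48 and 6.54 in mice 1 to 5, with a mean of 6.54 ± 0.23 (SD, n = 5). Mouse 2 was high, mouse 1 low, and mice 3, 4 and 5 differed little. The genes of the partner chains of CD94 did not pass the limit. Klrc1, the inhibitory NKG2A chain, read 4.37 in mouse 1 and between 4.90 and 4.99 in the others, and the activating chain gene Klrc2 read 4.33 in mouse 2 and between 3.83 and 3.89 in the others. Klrc3, another activating chain gene, had a mean of 2.52. Klrk1, which encodes the activating receptor NKG2D and is the neighbour of Klrd1, read 4.23 in 4 mice and 4.20 in mouse 5. Klrg1, an inhibitory receptor of terminal effector cells that regulatory T cells and innate lymphoid cells can also carry, read 4.30 in mouse 1 and between 4.54 and 4.65 in the others.

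Eomes and Tbx21 encode T-box factors that drive the cytotoxic programme. Eomes read 5.91, 6.30, 6.24, 6.39 and 6.24 in mice 1 to 5. Tbx21 read 5.63 in mouse 1, 5.80 in mouse 2 and between 5.71 and 5.72 in the others. Both were lowest in mouse 1.

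The 14 genes on the natural killer lineage list were Ncr1, Klrb1a, Klrb1b, Klrb1c, Klrb1f, Klre1, Klri1, Klri2 and 6 Klra genes. All stayed under the limit, with means between 2.68 and 5.52. The list name is only a label. Which cells of the mixture carried transcripts of listed genes, such as Klra2 and Klra17, was not tested. Ncr1, which encodes the activating receptor NKp46 and marks natural killer cells and type 1 innate lymphoid cells, read 5.06 in mice 1, 2 and 3, 4.68 in mouse 4 and 5.54 in mouse 5. Of the 14, 6 lay above the array median on every array and 7 under it on every array. The shares of all named genes that did so were not computed, and 45.4% had a mean under the mean of the array medians. Klrb1c encodes the NK1.1 antigen, which antibodies do not detect on NOD cells, and read 2.68 on all 5 arrays. Klrb1a, Klri2 and the related gene Klrb1 also had equal values on all arrays. Of the Klra genes, Klra3 read 5.05 in mouse 1, 5.39 in mice 2, 3 and 4, and 5.78 in mouse 5. Klra genes encode the Ly49 receptors for MHC class I. They are near-identical copies whose number and sequence differ between mouse strains, so their single values are uncertain, and 4 further probe sets that each match several Klra genes, with means between 2.72 and 4.90, were not assigned to any. The other members, Klrg2, Klrb1-ps1, Klrb1 and Klrh1, had means between 2.28 and 4.25.

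Equal values on several arrays were common among the low members. Of the 33 members under the limit, 22 (66.7%) had the same value on 3 or more arrays, close to the 69.2% of all 13335 named genes under it. None of the 5 expressed members did. The means of 23 of the 38 members (60.5%) lay under the mean of the array medians, as did 45.4% of all named genes. The range over the mice was below 0.5 log2 units for 28 of the 33 members under the limit and reached 0.86 in Ncr1. The median range was 0.197 over these 33, against 0.174 over all named genes under the limit.

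Mouse 1 was the lowest of the 5 mice in 4 of the 5 expressed members, Nkg7, Prf1, Klrd1 and Eomes, against 15.9% of the 6603 named genes past the limit. Mouse 2 was the highest in 3, Nkg7, Prf1 and Klrd1, against 12.3% of these genes. The same 3 genes combined both, as did 3.68% of the genes past the limit. Mice 1 and 2 had nearly the same T2. The expression of Nkg7 was 2.56-fold higher in mouse 2 than in mouse 1, that of Prf1 1.79-fold and that of Klrd1 1.57-fold, differences of 1.35, 0.84 and 0.65 on the log2 scale. A difference between these 2 mice at least as high as that of Nkg7 was found in 0.0303% of the genes past the limit, one as high as that of Prf1 in 0.333% and one as high as that of Klrd1 in 0.909%. These 3 genes were themselves lowest and highest in this pair of mice, so the shares are small in part by the choice of pair. Each mouse has a single array, so no test of the difference between 2 mice was possible.

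Most genes of CD8 and other T cells were also lowest in mouse 1 and highest in mouse 2, while the order of the mice between these extremes differed. Cd8a, the CD8 alpha chain, read 7.79, 9.21, 8.75, 8.93 and 8.42 in mice 1 to 5. The beta chain gene Cd8b1 was also lowest in mouse 1 at 7.50 and highest in mouse 2 at 8.81. Cd3e, a chain of the T cell receptor complex, read 8.80 in mouse 1 and 9.62 in mouse 2. All 7 pan T cell markers past the limit were highest in mouse 2 and 5 of them lowest in mouse 1. Cd4 ran from 7.79 in mouse 1 to 8.80 in mouse 2, the lowest and the highest of its 5 values. The B cell markers and the acinar cell markers ran the other way, with list means of 9.89 in mouse 1 and 9.02 in mouse 2 over 4 B cell genes, and 7.59 and 6.75 over 4 acinar genes. Their part in the low values of mouse 1 was not tested. In a sorted mixture such as this, fewer cells of a type and less RNA per cell cannot be told apart.

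Outside the families, single genes of the cytotoxic programme were also lowest in mouse 1 and highest in mouse 2. Most genes of their lists were not, as holds for most genes past the limit, of which 3.68% had this order. Ccl5, a chemokine of effector and memory T cells, read 8.20 and 9.30 for mice 1 and 2. Ctsw, a cathepsin of cytotoxic lymphocytes, read 6.58 and 7.32, and Il2rb, the receptor chain shared by IL-2 and IL-15, read 7.37 and 8.12. Ccl5 was the 1 gene with this order among 4 effector cytokines and death ligands past the limit, Ctsw the 1 among 15 genes of granule formation and release, and Il2rb the 1 among 8 cytokine receptors. Srgn, the granule proteoglycan, was lowest in mouse 2, and Serpinb9 had equal values in mice 1 and 2. Among 15 other receptors of natural killer and CD8 cells past the limit, 6 had this order, namely Cd226, Cd96, Lag3, Cd27, Cd7 and Cxcr6. Of these 15, 10 were highest in mouse 2, against 12.3% of the genes past the limit. The order was also seen in 2 of 12 adaptor and signalling genes, Fyn and Sh2d2a, and in 2 of 13 transcription factors, Ikzf2 and Tox. It was seen in 0 of 3 ligands of killer lectins.

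**Figure D2:**
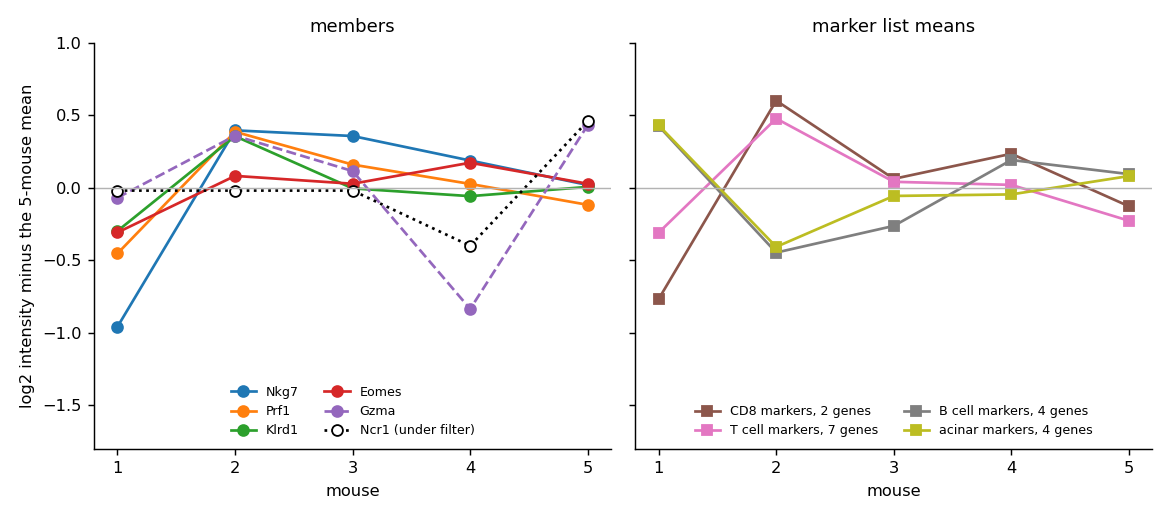
Log2 intensity minus the 5-mouse mean (y axis) in mice 1 to 5 (x axis, no order implied by the lines) for the 5 expressed members and Ncr1 (left) and for the means of 4 marker lists (right). Nkg7, Prf1 and Klrd1 are low in mouse 1 and high in mouse 2, as are the CD8 and T cell markers, while Gzma and Ncr1 are low in mouse 4 and high in mouse 5.

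The spread of each member over the mice was set beside its spread after the mean of the T cell markers or of the 2 CD8 chains was subtracted, mouse by mouse. For Prf1 the SD of 0.31 became 0.12 against the 7 pan T cell markers, so that the difference between Prf1 and the T cell mean ran only from -1.88 to -1.62. For Klrd1 the SD of 0.23 became 0.14 against the T cell markers but 0.31 against the CD8 chains. For Nkg7 the SD of 0.56 became 0.22 against the CD8 chains and 0.39 against the T cell markers. The SD of Prf1 against the CD8 chains was also 0.22. Ratios as low as that of Prf1 against the T cell markers were found in 0.273% of the genes past the limit, and ratios as low as that of Nkg7 against the CD8 chains in 0.0757%. Against both, the SD of Gzma was higher, going from 0.51 to 0.56 and 0.71, and that of Eomes from 0.18 to 0.25 and 0.36. Even so, ratios as low as theirs were found in only 2.76% and 2.30% of genes for Gzma, and 5.53% and 5.98% for Eomes. Such shares depend on a gene's own SD, and the genes past the limit include the subtracted markers. They therefore do not show that a member followed either list. These SDs describe 5 mice and carry no test.

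**Figure D3:**
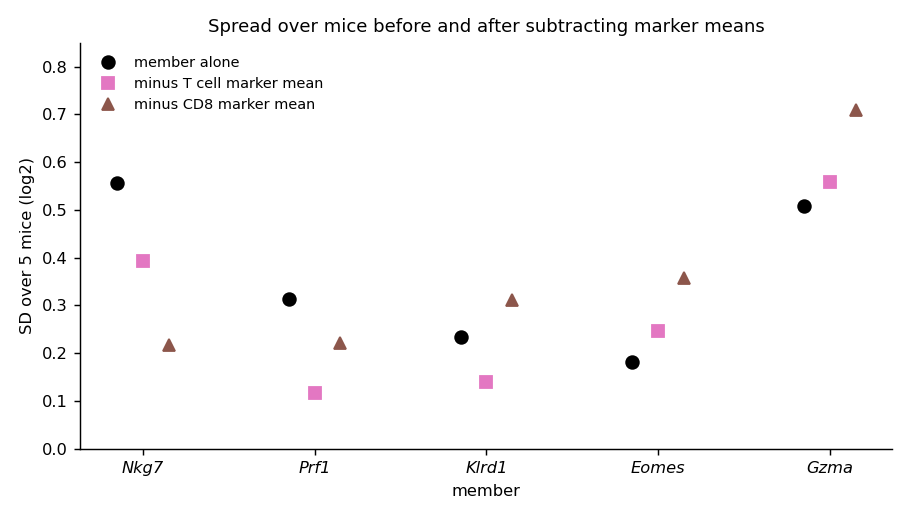
SD over the 5 mice in log2 units (y axis) of each expressed member (x axis) by itself (circles), minus the T cell marker mean (squares) and minus the mean of Cd8a and Cd8b1 (triangles). The SD of Prf1 and Klrd1 is smallest against the T cell markers, that of Nkg7 against the CD8 chains, and that of Gzma and Eomes by itself.

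Gzma and Ncr1 shared another order, lowest in mouse 4 and highest in mouse 5. Gzma was 2.41-fold higher in mouse 5 than in mouse 4 and Ncr1 1.82-fold, differences of 1.27 and 0.86 on the log2 scale. This order was seen in 3 of the 38 members, the third being the pseudogene Klrb1-ps1, against 2.4% of all named genes and 3.07% of those past the limit. Klrb1-ps1 read between 3.08 and 3.29, under the array median on every array, and Ncr1 is also under the limit. Of the 5 expressed members, Gzma alone had this order. A difference between mice 5 and 4 at least as high as that of Gzma was found in 0.0909% of the genes past the limit. Mice 4 and 5 hold the lowest and the highest value of Gzma itself, so this share is small in part by the choice of pair. Of the 14 genes on the natural killer lineage list, 9 were higher in mouse 5 than in mouse 4, 2 were lower and 3 equal. Their median difference was 0.042, and 27.5% of the named genes under the limit were higher. Which cells carried these transcripts, among them those of Klra2 and Klra17, was not tested. Besides Ncr1, the higher ones were Klra2, Klra3, Klra5, Klra8 and Klra17, by 0.19 to 0.44, and Klrb1b, Klrb1f and Klri1, by 0.043, 0.042 and 0.0078. The Klra genes are near-identical copies with uncertain single values, so they are not separate readings. Klra6 and Klre1 were lower, by -0.057 and -0.11. Klra8 read 5.14 in mouse 5 and 4.70 in the other 4 mice. The differences of Nkg7, Prf1 and Eomes between the same 2 mice were -0.17, -0.14 and -0.15, and that of Klrd1 was 0.06. The mean of the 14 genes was 4.16, 4.20, 4.29, 4.17 and 4.33 for mice 1 to 5, and all 14 genes are under the limit of 6. Of 8 receptors for cytokines of the cytotoxic lineages past the limit, 3 were lowest in mouse 4 and highest in mouse 5, Il18r1, Il7r and Tgfbr1. The plasmacytoid dendritic cell markers also had their highest mean in mouse 5, at 6.98 against 6.46 in mouse 4, and their part in these values was not tested.

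**Figure D4:**
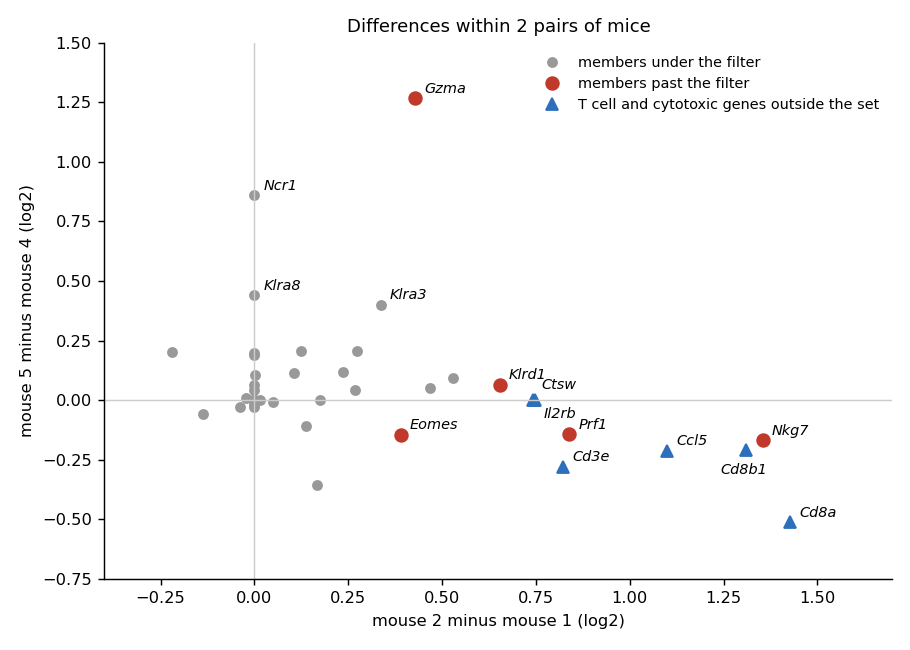
Difference between mice 2 and 1 (x axis) and between mice 5 and 4 (y axis), in log2 units, for members past the limit (red), members under it (grey) and 6 T cell and cytotoxic genes outside the families (blue). Nkg7 and Prf1 lie with Cd8a, Cd8b1, Ccl5 and Cd3e along the x axis, and Gzma and Ncr1 lie high on the y axis.

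Nkg7, Prf1 and Gzma are expressed members, of which Nkg7 and Prf1 shared an order of mice that Gzma did not. The 150 bases before their transcription starts are shown to set their regulatory sequence side by side, from RefSeq on GRCm38.p6, 5′ to 3′ on the strand of the gene. Capitals mark the core letters of the T-box factors (AGGTGT) and of the Runx factors (TGTGGT), on either strand. Both cores were chosen after the promoters had been looked at.
Nkg7, chr7:43436988-43437137, plus strand: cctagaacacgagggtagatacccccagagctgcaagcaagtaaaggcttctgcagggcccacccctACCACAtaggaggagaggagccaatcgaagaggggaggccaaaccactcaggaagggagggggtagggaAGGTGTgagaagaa
Prf1, chr10:61297686-61297835, plus strand: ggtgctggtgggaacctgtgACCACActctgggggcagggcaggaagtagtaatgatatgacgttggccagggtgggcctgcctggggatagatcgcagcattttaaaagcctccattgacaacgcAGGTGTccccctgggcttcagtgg
Gzma, chr13:113100982-113101131, minus strand: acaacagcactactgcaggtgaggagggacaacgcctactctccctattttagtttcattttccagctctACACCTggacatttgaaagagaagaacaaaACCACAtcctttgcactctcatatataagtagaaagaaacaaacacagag
In windows of 300 bases, 250 before to 50 after the start, the T-box core stood in 8 of the 34 members with a window and in 13.7% of all 32851 windows. The Runx core stood in 18 of the 34 members and in 16.8% of all windows. Both stood together in Gzma, Gzmc, Gzme, Nkg7 and Prf1, and in 2.85% of all windows. A member counted where any of its windows held the letters, while the shares of all windows count each window singly. The 2 cores overlapped in no member. Many of the windows are alike, since the granzymes of the Gzmb cluster and the Klrc genes are recent copies, and the longer T-box letters AGGTGTGA stood only in Nkg7 among the members and in 1.28% of all windows. The windows of Gzmc and Gzme hold both cores although these genes read under the array medians, and the window of Eomes holds neither. A match of letters is a description and not a binding site.

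The change of each gene with T2 was fitted over the 5 mice with limma, a linear model whose error is moderated over genes, across the 6603 named genes past the limit. None of the 5 expressed members passed at an adjusted p under 0.05, nor did any gene (0% of 6603), and no member had an unadjusted p under 0.05, against 5.29% of genes. The slopes were -0.060 ± 0.092 log2 units per ms for Nkg7, 0.0053 ± 0.055 for Prf1, 0.0077 ± 0.041 for Klrd1, 0.041 ± 0.086 for Gzma and -0.034 ± 0.027 for Eomes (SE, n = 5). Only the slope of Eomes was larger than its standard error, and it had the lowest adjusted p of the members (limma with Benjamini-Hochberg adjustment, adjusted p = 0.828). The fitted fold of Nkg7 between the lowest and the highest T2 was 1.30, with a 95% interval from 0.416 to 4.06. That of Prf1 was 0.977 (0.496 to 1.92) and that of Klrd1 0.967 (0.584 to 1.60). These intervals hold folds in both directions. The slope was positive in 3 of the 5 members, against 28.9% of the genes tested, and its median over them was 0.0053, against -0.0074 over all genes tested. With T2 reassigned in each of the 120 possible orders, the exact permutation test gave two-sided p-values between 0.383 for Eomes and 0.917 for Klrd1, where the design allows no p below 0.00833.

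**Figure D5:**
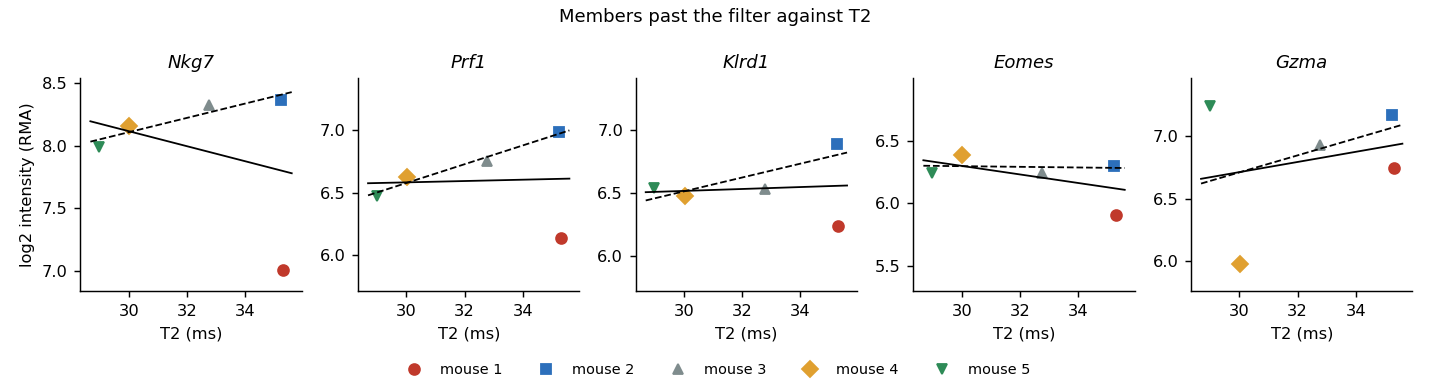
Log2 intensity (y axis, each panel spanning the same range) against T2 in ms (x axis) for the 5 expressed members; symbols are mice, the solid line is the fit over 5 mice and the dashed line the fit without mouse 1. In the panels of Nkg7, Prf1 and Klrd1 mouse 1 lies far below mouse 2 at almost the same T2, and in the panel of Gzma mouse 4 lies lowest.

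The slopes of Nkg7, Prf1 and Klrd1 depended on which mice were in the fit. Without mouse 1, whose values of these genes were the lowest, the slope of Nkg7 was 0.057 ± 0.014 in place of -0.060, that of Prf1 0.075 ± 0.0081 in place of 0.0053 and that of Klrd1 0.055 ± 0.023 in place of 0.0077 (SE, n = 4). Mouse 1 also had the highest T2, so leaving out its low values was bound to raise these slopes. The p-values and shares of this fit are therefore descriptions. In these 4 mice Nkg7 and Prf1 both fell in the order of mice 2, 3, 4 and 5, which is the order of falling T2, as did 1.24% of the genes tested. Nkg7 and Prf1 then had an unadjusted p under 0.05 with a positive slope, as did 1.51% of the genes (100 of 6603). In the same fit 560 genes had an unadjusted p under 0.05 with a negative slope. Nkg7 and Prf1 did not pass over all genes (limma adjusted p = 0.484 and adjusted p = 0.360). The mean of the T cell markers had a slope of 0.096 ± 0.027 in the same 4 mice, and Prf1 minus that mean had -0.021 ± 0.020 (SE, n = 4). Without mouse 2 the slopes of Nkg7, Prf1 and Klrd1 were -0.14 ± 0.092, -0.048 ± 0.048 and -0.040 ± 0.019. The slope of Gzma was -0.044 ± 0.038 without mouse 4 and 0.17 ± 0.068 without mouse 5.

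As a group, the 5 expressed members, all of which natural killer and CD8 effector cells share, had a mean of 6.41, 7.14, 6.96, 6.72 and 6.90 in mice 1 to 5 and a slope of -0.0081 ± 0.055 log2 units per ms. The 14 genes on the natural killer lineage list had -0.014 ± 0.013. The mean of the 5 members minus the T cell marker mean was -1.62, -1.67, -1.42, -1.63 and -1.21 in mice 1 to 5, highest in mouse 5, with a slope of -0.044 ± 0.029. Against the CD8 chains in place of the T cell markers that slope was 0.010 ± 0.059, so its direction depended on the list that was subtracted.

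The wider cytotoxic pathway was taken from lists of other genes, and none of their genes passed over all genes tested (0% of 6603). Of 20 genes of granule formation and release, 15 were past the limit, with 12 negative and 3 positive slopes and a median of -0.024. Over all genes tested 67.9% of slopes were negative and the median was -0.0074. Ctsl, the lysosomal protease cathepsin L, read 5.98, 6.72, 7.13, 7.16 and 7.57 in mice 1 to 5, a slope of -0.18 ± 0.054 (SE, n = 5). Rab27a, a GTPase that docks granules at the membrane, had -0.075 ± 0.025, and these 2 of the 15 had an unadjusted p under 0.05, against 5.29% of all genes tested. Ctsl is also a macrophage gene, and the mean of 7 macrophage markers had a slope of -0.19 ± 0.022, whose part in these slopes was not tested. Srgn, the proteoglycan core of the granule, read between 11.10 and 11.39. Serpinb9, the inhibitor that protects killer cells from granzyme B, read between 4.41 and 4.59 and did not pass the limit.

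Of 16 genes for adaptors and signalling of killer receptors, 12 were past the limit, 10 of them with negative slopes, at a median of -0.020, beside the 67.9% negative slopes of all genes tested. Fcgr3, the Fc receptor of antibody-dependent killing that macrophages also carry, had -0.077 ± 0.031, and Cd247, the zeta chain of the T cell receptor and of natural killer receptors, had 0.076 ± 0.036. Of 20 further receptors of these cells, 15 were past the limit, 9 with positive slopes, which 28.9% of all genes tested had, and a median of 0.0053, among them Cxcr3, a chemokine receptor of effector T cells, at 0.069 ± 0.038, and Cd244a, a SLAM family receptor, at -0.056 ± 0.042. Of 12 cytokine receptors 8 were past the limit. Both chains of the IL-18 receptor were highest in mouse 5, Il18rap at 6.78 and Il18r1 at 6.61, with slopes of -0.042 ± 0.029 and -0.023 ± 0.023.

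Of 16 transcription factors of these lineages, 13 were past the limit with a median slope of 0.00092, and 1 of the 13 had an unadjusted p under 0.05, against 5.29% of all genes tested. This was Bhlhe40, a regulator of cytokine production, with a slope of -0.054 ± 0.012. Zeb2, a factor of terminal effector cells that myeloid cells also express, had -0.087 ± 0.043. Of 12 effector cytokines and death ligands 4 were past the limit, and Ccl3 and Tnf had slopes of -0.055 ± 0.026 and 0.047 ± 0.021. Ifng and Fasl, the genes of interferon gamma and Fas ligand, were not, with means of 4.17 and 4.95. For 19 ligands of the killer lectins, 9 could be read singly and 3 of these were past the limit, among them Clec2d, a ligand of the Klrb1 family, at 0.041 ± 0.025, and H60b, a ligand of NKG2D, at -0.061 ± 0.065.

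Other cells that can carry some of these genes were read from marker lists. Of 6 markers of gamma delta and NKT cells, 3 could be read on a single-symbol probe set and none was past the limit. Of 7 markers of type 2 innate lymphoid cells, 5 could be read and 1 was past it, Gata3, which T cells also express, between 6.88 and 7.20. Ptprc, the gene of CD45 by which the cells were sorted, had a mean of 11.06. The naive lymphocyte markers averaged 9.31 ± 0.085 and the plasmacytoid dendritic cell markers 6.68 ± 0.22 (SD, n = 5). Bst2 and Tcf4 of the latter list had slopes of -0.018 ± 0.019 and -0.048 ± 0.051, Klf2 and Ccr7 of the naive list -0.034 ± 0.016 and 0.011 ± 0.025. Cd79a and Ms4a1 of B cells had -0.065 ± 0.045 and -0.021 ± 0.069, and the acinar genes Cela1 and Ctrb1 0.043 ± 0.033 and -0.043 ± 0.075 (SE, n = 5). The steepest of the marker slopes named here were those of the macrophage genes Apoe, an apolipoprotein, and C1qa, a complement chain, at -0.24 ± 0.020 and -0.25 ± 0.029. They did not pass either (limma adjusted p = 0.243 and adjusted p = 0.266).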

How the data were processed

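CD45+ cells sorted from the pancreas of 5 mice were profiled with 1 array each, and the labels give no batch or date, so none could be tested. Same-group mice are separate animals per the labels. The authors deposited linear probe-set intensities. The submitters' processing notes name RMA and Affymetrix Power Tools, without versions, and no genome build is given in the sources used here. RMA fits arrays together, so values are relative, and equal values on several arrays lower a gene's apparent spread. The number of arrays limits the precision.

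Intensities were transformed to log2. Probe sets with 1 symbol in GEO's platform annotation (21789 of 35556) were kept, 1621 with several symbols and 12146 without one were not named, and the set of highest mean stood for a gene; each member had 1 set. All 38 members matched RefSeq by gene ID. The 6603 genes with a mean of at least 6 were fitted against T2 by limma 3.58.1 (lmFit, then eBayes; R 4.3.3), two-sided, with Benjamini-Hochberg adjustment over all of them, after a check on simulated data. Slopes of list means are least-squares slopes with no test. The members and lists were chosen with earlier results of these data known. Named genes are all members past the limit, Ncr1, Klrb1c and the highest Klra gene, the 2 genes of each other list with the largest moderated t, and 9 fixed genes, of which H2-T23 was not analysed here; other members are given to account for the whole set, and other list genes were named after their order of mice was seen. Mice are independent samples, but p-values rest on 3 residual degrees of freedom. Alternatives were other limits on expression, renormalized or centred arrays, the mean of probe sets, ranked T2, another variance model, a threshold of 0.10, genes with equal values left out, the exact permutation and each mouse left out. Subtraction of the CD8 chains and the count of orders of mice were added after the data were seen.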

Additional observations from a re-analysis of the deposited data

Results flagged for a closer look

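Each of 91 sets of 5 values, of members, other named genes and list means, was checked for a mouse that stood apart, by dividing its distance from the next mouse by the distance between the extremes; a share above 0.71 was needed, and chance gives about 1 in 20. This was met by 17 sets, of which 14 had equal values on 3 or more arrays. Nkg7 was the expressed member among them, with mouse 1 at 7.01 and the others between 7.99 and 8.36 (share 0.722).

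Klrc2 was high in mouse 2, at 4.33 against 3.83 to 3.89 (0.887), Klrg2 was high in mouse 3, at 4.55 against 4.16 to 4.21 (0.854), and Klrc1 was low in mouse 1, at 4.37 against 4.90 to 4.99 (0.852). Klrb1b was high in mouse 3 (0.832) and Klri1 in mouse 1 (0.739). Gzmd, Gzme, Gzmf, Gzmg, Gzmm, Gzmn, Klra8, Klrc3 and Klrk1 had the same value on 4 arrays and another on the fifth, which gives a share of 1 whatever the size of the difference. The largest such difference was that of Klra8, 5.14 in mouse 5 against 4.70, and the values of the granzymes were under the array medians. Outside the families, Il18r1 was high in mouse 5, at 6.61 against 6.23 to 6.32 (0.747), and Serpinb9 low there, at 4.41 against 4.59 (0.962).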

How the results depend on the processing

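No member passed the threshold under any alternative run. Over all genes the count of 0 became 3 with a limit of 7, 4 with renormalized arrays, 3 at a threshold of 0.10 and 35 with genes of equal values left out, which also lowers the number of genes tested to 4079; the cause was not tested. The slope of the mean of the shared members was 0.0019 with renormalized arrays and ran from -0.056 to 0.051 when each mouse was left out. Minus the T cell markers it was -0.089 with a limit of 7, where Nkg7 alone is left, 0.010 against the CD8 chains, which was chosen after seeing the data, and from -0.070 to -0.0090 without each mouse. The mean of the natural killer lineage list kept its negative slope, from -0.025 to -0.0025. On ranks of T2 the slopes of Klrd1 and Prf1 were -0.012 and -0.020. Without each mouse Klrd1 ran from -0.040 to 0.055, Prf1 from -0.048 to 0.075, Nkg7 from -0.140 to 0.057 and Gzma from -0.044 to 0.173. In all, 129 of the recomputed values kept their side and direction, 6 moved and 11 reversed. The count of 3 expressed members lowest in mouse 1 and highest in mouse 2 held under both scalings and with the mean of probe sets. No paired analysis was possible because the mice form 1 group. Low intensities limit the values of the 33 members under the limit.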
